A study of Mus musculus with 8 samples.

Results

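The D-type cyclins, their kinases CDK4 and CDK6, and the inhibitors of these kinases were measured in mouse epidermis from between the hair follicles (interfollicular epidermis). The members were 10 genes: the inhibitors Cdkn1a, Cdkn1b, Cdkn2a, Cdkn2b and Cdkn2c, the cyclins Ccnd1, Ccnd2 and Ccnd3, and the kinases Cdk4 and Cdk6. Every probe set that the platform annotation assigns to 1 of these genes was taken, which gave 24 of the 45037 probe sets tested, and each probe set was read separately. There were 4 arrays from G9a cKO animals, which carry a conditional knockout of the histone H3 lysine 9 methyltransferase G9a (gene Ehmt2), and 4 arrays from G9a WT animals. The shaved back skin of both genotypes had been painted with DMBA, a carcinogen, and TPA, a tumour promoter, and the epidermis was taken before tumours formed. Per the labels' protocols, 200 µl of DMBA at 0.25 mg/ml and of TPA at 0.02 mg/ml were applied weekly for 6 weeks from 8 weeks of age, and the animals are labelled 15 weeks old. No untreated skin is among the samples used here. The labels name neither the Cre driver, the deleted part of the gene, the strain nor the sex, and since they do not tie replicates to separate animals, the p-values here cover no more than the spread among these 8 samples.

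D-type cyclins are made in response to growth signals and bind CDK4 or CDK6, and the active complexes phosphorylate the retinoblastoma protein, which releases E2F factors and lets cells pass from G1 into S phase. The INK4 proteins, encoded by Cdkn2a, Cdkn2b and Cdkn2c, bind CDK4 and CDK6 and keep cyclin D off, whereas the CIP/KIP proteins p21 (Cdkn1a) and p27 (Cdkn1b) bind assembled cyclin-CDK complexes and inhibit CDK2. In mouse epidermis, cyclin D1 and CDK4 are known for their part in the growth of DMBA/TPA papillomas, and p21 for its induction when keratinocytes stop dividing and differentiate.

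The values are log2 expression from RMA, a procedure that corrects background, normalises between arrays and summarises the probes of a set. Array medians lay between 5.72 and 5.80. WT replicate 4 stood apart from the other WT arrays on the first principal component of all probe sets, at 23.5 against -20.6 to -11.4, while the cKO arrays ran from -10.7 to 19.2, so the member values were also computed without it. Ehmt2 checked the genotype at 1 of its 2 probe sets: 1460692_PM_at read 6.30 to 7.07 in cKO and 9.25 to 9.77 in WT (limma adjusted p = 0.000244), and 1426888_PM_at read 8.29 to 8.42 in cKO and 8.22 to 8.45 in WT (limma adjusted p = 0.996). The labels do not give the deleted part, and where the 2 probe sets lie relative to it was not examined. The keratinocyte genes Krt14 and Krt5 stood among the brightest probe sets, with means of 12.86 in cKO and in WT for Krt14 at 1423935_PM_x_at, and of 12.63 in cKO and 12.60 in WT for Krt5. Over 10 marker lists of keratinocyte states and of other cell types, with 72 probe sets, none passed the limma test, which 0.466% of all probe sets did. An unadjusted p under 0.05 was found at 6 of them, or 8.33%, against 7.98% of all probe sets. The 7 probe sets of activated keratinocytes had the lowest list median, -0.29. The 5 sets of Krt6a, Krt6b and Krt16 lay below 0, and those of S100a8 (0.05) and S100a9 (0.12) above 0. Means of this list per array were 9.01 to 9.17 in cKO and 8.99 to 9.60 in WT. What activated keratinocytes add to the results below was not tested.

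None of the 24 member probe sets passed the test between cKO and WT. The test was limma across all probe sets, called at a Benjamini-Hochberg adjusted p under 0.05, by which 0.466% of all probe sets were called, 0.393% as higher and 0.0733% as lower in cKO. The lowest adjusted p among the members was 0.271, for Cdkn2b. At an unadjusted p under 0.05, 4 member probe sets, or 16.7%, stood out, against 7.98% of all probe sets: those of Cdkn2b and Cdkn2a, 1 of Ccnd1 and 1 of Cdk6. The fitted difference was above 0 at 20 member probe sets and below 0 at 4, with a median of 0.07 on the log2 scale, against 53.0% above 0 and a median of 0.0053 over all probe sets. Probe sets of one gene share its transcripts, so these 20 are not independent. In no member did all 4 cKO arrays lie on one side of all 4 WT arrays, which was the case for 4.89% of all probe sets.

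**Figure D1:**
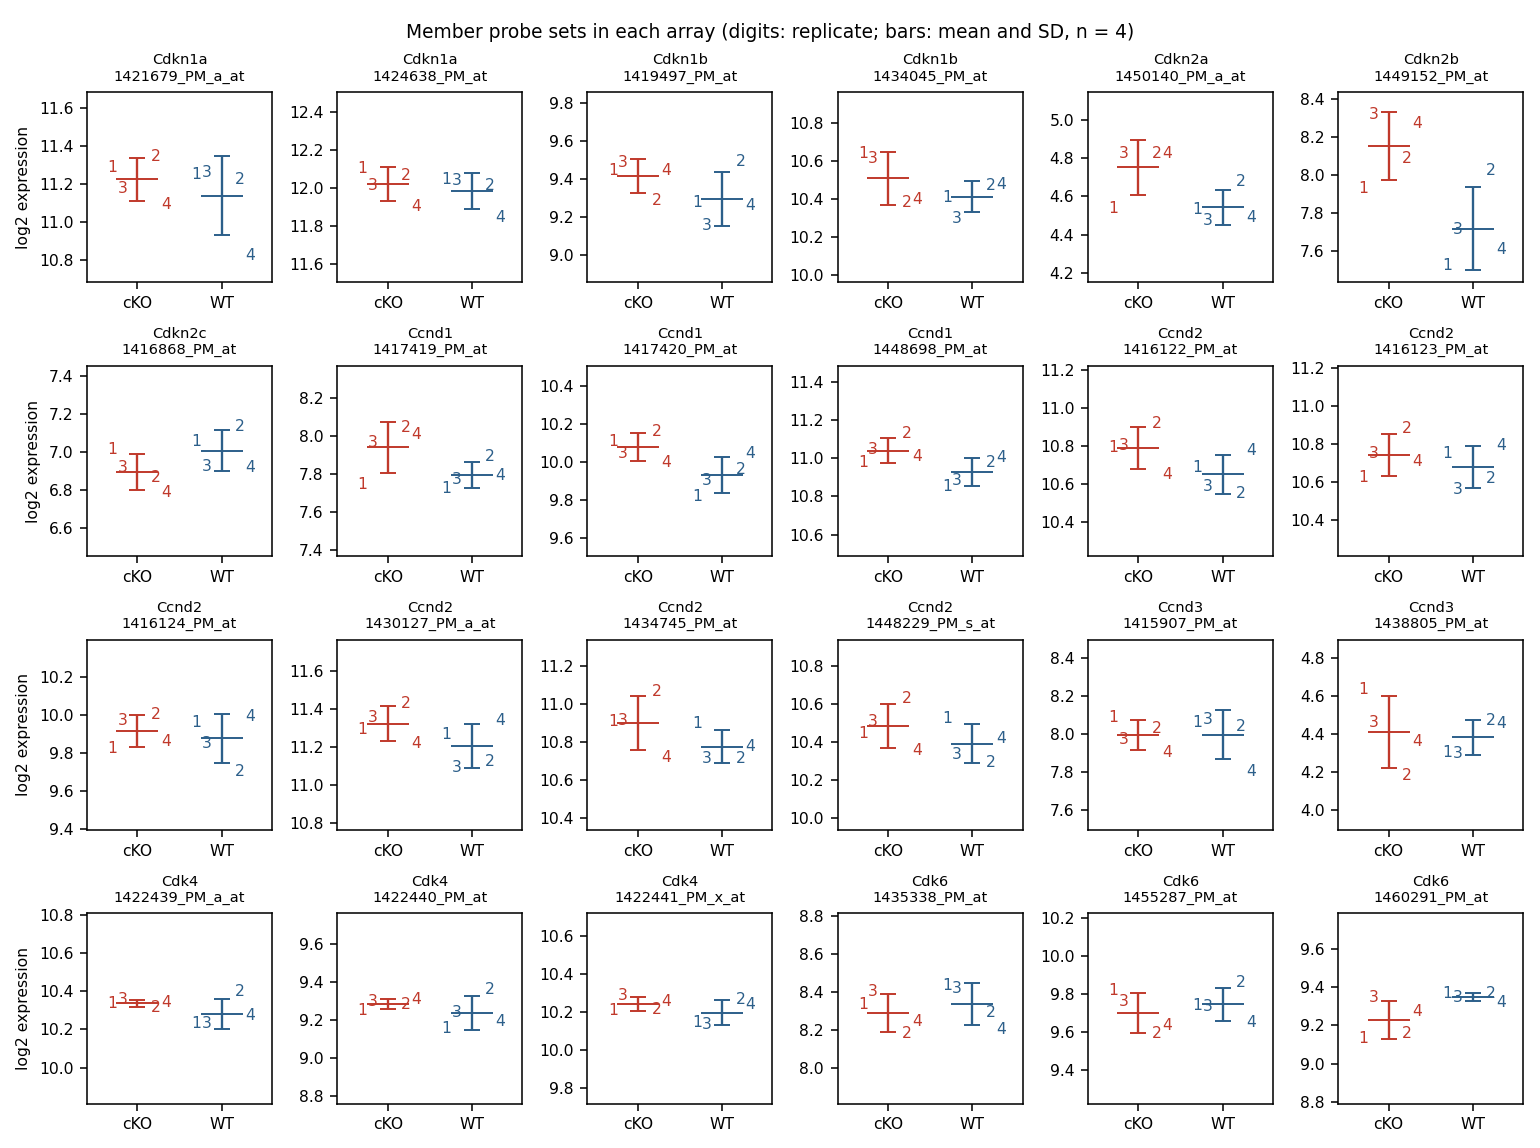
Log2 expression of each of the 24 member probe sets in every array, cKO left and WT right; digits are replicate numbers, bars give the mean and SD of 4 arrays, and every panel spans 1 log2 unit. The groups overlap in every panel, and Cdkn2b shows the widest gap between the means, 8.15 in cKO and 7.72 in WT.

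The intervals of the fit give the range of differences each probe set allows. Half-widths of the 95% interval ran from 0.11 to 0.27 on the log2 scale over the member probe sets, beside a median of 0.14 over all probe sets. As cKO over WT, the lowest bound was 0.833-fold, at Cdkn2c, and the highest were 1.63-fold at Cdkn2b and 1.25-fold at Cdkn1a, leaving out the probe set of Cdkn2a and 1 of Ccnd3, whose signal was too dim to tell from background. These intervals are for single probe sets and are not adjusted for the number tested. The titles name the material as cells of the interfollicular epidermis, and each array reads the RNA of many cells together. In such samples a different number of cells of a type and a different amount of RNA per cell cannot be told apart.

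**Figure D2:**
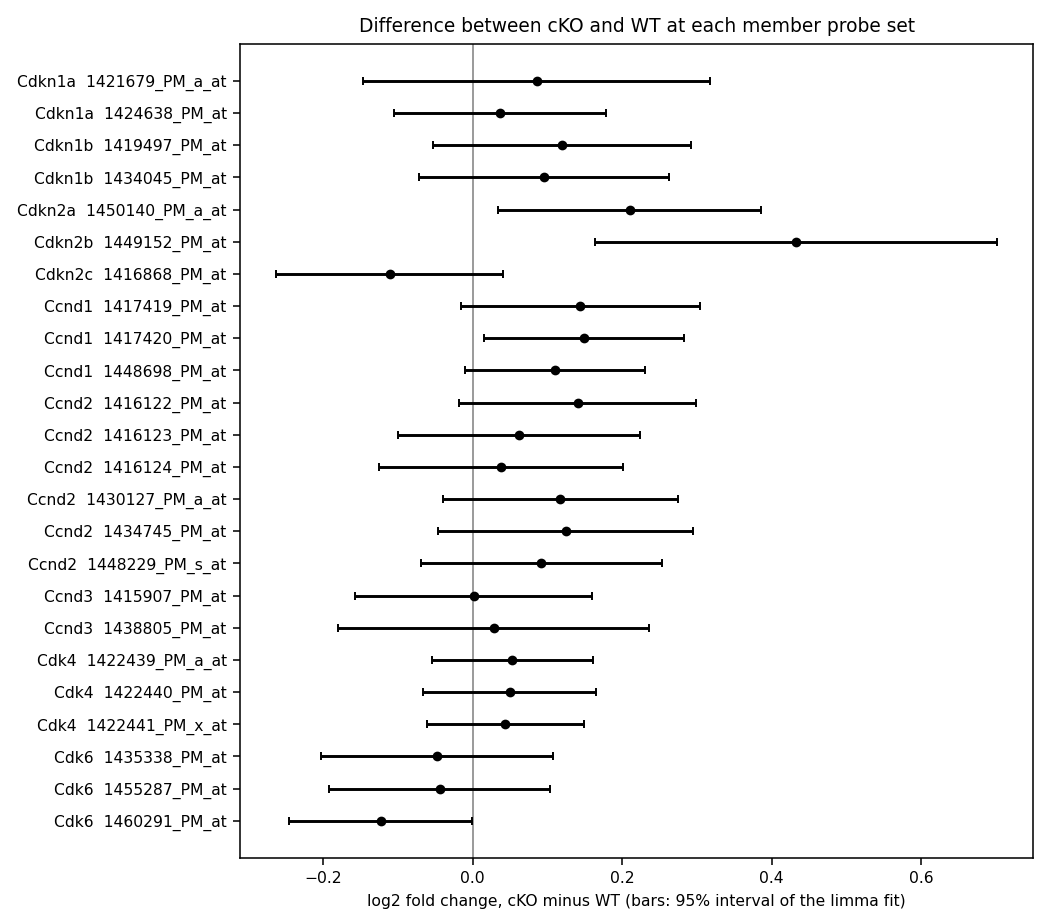
Fitted difference between cKO and WT (points) and its 95% interval (bars) on the log2 scale for each member probe set. The interval lies wholly on one side of 0 at Cdkn2b, at Cdkn2a, at 1 probe set of Ccnd1 and at 1 of Cdk6, none of which passed after adjustment.

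Among the INK4 genes, Cdkn2b, which encodes p15 and is a known target of TGF-beta signalling, had the largest difference of all members. Its probe set 1449152_PM_at read 7.93, 8.09, 8.32 and 8.27 in cKO replicates 1 to 4, against 7.52, 8.02, 7.71 and 7.61 in WT replicates 1 to 4. Of the cKO arrays 3 lay above every WT array, and cKO replicate 1 lay below WT replicate 2. The means were 8.15 ± 0.18 in cKO and 7.72 ± 0.22 in WT (SD, n = 4 each), a log2 fold change of 0.43 (SE 0.12), or 1.35-fold with a 95% interval of 1.12 to 1.63. It did not pass (limma adjusted p = 0.271), and the exact permutation test over the 70 arrangements, two-sided, gave p = 0.0571, where 0.0286 is the smallest it allows. With weights estimated for the arrays, the difference was 0.52 and the adjusted p 0.049997. These weights ran from 0.470 for WT replicate 4 to 2.71 for cKO replicate 3, the highest Cdkn2b array. Over all the alternatives the adjusted p ran up to 0.674, and it was 0.673 without WT replicate 1 and 0.0982 without WT replicate 2.

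Cdkn2a, the neighbour of Cdkn2b on chromosome 4, encodes p16Ink4a and, from a separate first exon and another reading frame, p19Arf, which stabilises p53. Its single probe set, 1450140_PM_a_at, read 4.54, 4.82, 4.83 and 4.83 in cKO replicates 1 to 4 and 4.53, 4.68, 4.47 and 4.49 in WT replicates 1 to 4. The cKO arrays 2 to 4 lay above every WT array, and cKO replicate 1 lay within the WT range. The log2 fold change was 0.21 (SE 0.08, limma adjusted p = 0.502, exact permutation p = 0.0571). All 8 values lay below 5.16, the 95th percentile of the mean levels of 44 olfactory receptor probe sets, genes with little use in skin, so that the level was not shown to lie above background. Which of the 2 products the probe set reads was not determined here. Cdkn2c, which encodes p18Ink4c, read 7.02, 6.87, 6.92 and 6.79 in cKO replicates 1 to 4 and 7.06, 7.14, 6.92 and 6.92 in WT replicates 1 to 4. Its log2 fold change was -0.11 (SE 0.07, limma adjusted p = 0.791), with cKO replicates 2 and 4 below every WT array, cKO replicate 3 only just below them and cKO replicate 1 within the WT range.

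The sequences around the starts of Cdkn2b and Cdkn2a are shown because Cdkn2b had the largest difference and Cdkn2a is its neighbour, and that of Cdk4 because its probe sets had the narrowest interval of the members. Each runs from 250 bases before to 50 bases after a start in RefSeq (GRCm38.p6), 5′ to 3′ on the gene's strand. Capitals mark matches on either strand to the E-box CACGTG bound by MYC, the cyclic AMP response element TGACGTCA, the GC box GGGCGG bound by SP1 (also read as CCGCCC) and the E2F motif TTTCCCGC. The AP-1 motif TGACTCA, known as the TPA response element, was searched too. The Cdkn2a start at the higher coordinates is the one farther upstream on the minus strand, where the first exon of Arf lies.
Cdkn2b, chr4:89310983-89311282, minus strand: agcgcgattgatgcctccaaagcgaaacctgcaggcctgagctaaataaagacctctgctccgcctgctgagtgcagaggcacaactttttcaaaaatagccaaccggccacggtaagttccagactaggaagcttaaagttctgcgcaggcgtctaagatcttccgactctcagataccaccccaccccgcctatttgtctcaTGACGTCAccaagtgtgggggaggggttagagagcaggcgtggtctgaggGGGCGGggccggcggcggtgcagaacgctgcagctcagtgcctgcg
Cdkn2a, upstream start, chr4:89294570-89294869, minus strand: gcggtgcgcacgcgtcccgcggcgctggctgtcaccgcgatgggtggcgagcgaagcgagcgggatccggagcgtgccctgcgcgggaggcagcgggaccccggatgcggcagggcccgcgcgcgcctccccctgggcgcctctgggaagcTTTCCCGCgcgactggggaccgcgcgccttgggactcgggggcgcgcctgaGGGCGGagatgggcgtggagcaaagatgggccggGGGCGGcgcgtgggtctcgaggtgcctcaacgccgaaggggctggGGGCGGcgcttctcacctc
Cdkn2a, downstream start, chr4:89282143-89282442, minus strand: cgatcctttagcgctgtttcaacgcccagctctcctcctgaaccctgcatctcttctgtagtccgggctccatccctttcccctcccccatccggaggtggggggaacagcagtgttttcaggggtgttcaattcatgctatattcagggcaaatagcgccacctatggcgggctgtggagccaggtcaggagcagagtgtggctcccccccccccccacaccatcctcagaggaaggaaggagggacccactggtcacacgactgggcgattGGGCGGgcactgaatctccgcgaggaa
Cdk4, chr10:127063285-127063584, plus strand: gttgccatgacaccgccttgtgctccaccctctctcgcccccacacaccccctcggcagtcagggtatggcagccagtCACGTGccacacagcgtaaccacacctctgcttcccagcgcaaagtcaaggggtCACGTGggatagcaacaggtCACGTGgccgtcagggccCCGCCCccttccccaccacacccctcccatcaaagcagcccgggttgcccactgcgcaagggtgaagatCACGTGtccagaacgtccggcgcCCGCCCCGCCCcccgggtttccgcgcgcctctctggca

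The Cdkn2b window held 1 match to the cyclic AMP response element, as 1.79% of all 32851 promoter windows do, and 1 GC box, as 35.7% do. The upstream Cdkn2a window had 3 GC boxes, 1 match to the E2F motif, which 1.07% of windows hold, and 45 CG pairs, against a median of 7 over all windows, while the downstream one had 1 GC box and 12 CG pairs. The Cdk4 window held 4 E-boxes, where 7.15% of windows hold at least 1 and 0.0244% at least 4, and 3 GC boxes, of which 2 overlap. Of 12 windows found for 8 of the 10 members none held the AP-1 motif, which 5.20% of all windows do. Ccnd1 and Ccnd2 are named only. A match describes these letters and is not a shown binding site.

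The CIP/KIP inhibitors were bright, and none of their differences, from 0.04 to 0.12 on the log2 scale, passed the test. For Cdkn1a, probe set 1424638_PM_at read 12.10, 12.07, 12.01 and 11.90 in cKO replicates 1 to 4, against 12.04, 12.02, 12.04 and 11.84 in WT replicates 1 to 4 (log2 fold change 0.04, SE 0.06, limma adjusted p = 0.973). At 1421679_PM_a_at Cdkn1a read 11.28, 11.35, 11.18 and 11.09 in cKO, against 11.25, 11.22, 11.26 and 10.82 in WT (0.09, SE 0.10, limma adjusted p = 0.950). WT replicate 4 was the lowest array at both probe sets, and without it the differences were -0.01 and -0.02. Cdkn1b read 9.29 to 9.49 in cKO and 9.15 to 9.49 in WT at 1419497_PM_at, and 10.38 to 10.64 in cKO and 10.30 to 10.48 in WT at 1434045_PM_at. Its differences were 0.12 (SE 0.08, limma adjusted p = 0.815) and 0.10 (SE 0.07, adjusted p = 0.875), and they stayed above 0 whichever array was left out.

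Cyclin D1 read slightly higher in cKO at all 3 probe sets of Ccnd1, with no call. At 1417420_PM_at it read 10.11, 10.16, 10.05 and 10.00 in cKO replicates 1 to 4, against 9.82, 9.96, 9.90 and 10.04 in WT replicates 1 to 4, so that cKO replicate 4 lay below WT replicate 4. The log2 fold change there was 0.15 (SE 0.06, limma adjusted p = 0.555, exact permutation p = 0.0571), or 1.11-fold with a 95% interval of 1.01 to 1.22. The other 2 probe sets gave much the same size: 0.14 at 1417419_PM_at (7.74 to 8.04 in cKO, 7.73 to 7.89 in WT, limma adjusted p = 0.687) and 0.11 at 1448698_PM_at (10.98 to 11.13 in cKO, 10.85 to 11.01 in WT, adjusted p = 0.676). At each of the 3, 3 cKO arrays lay above every WT array, and the array that did not was cKO replicate 1 at 1417419_PM_at and at 1448698_PM_at. Leaving out any 1 array kept the difference above 0 at each of them, between 0.08 and 0.21.

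Cyclin D2 has 6 probe sets, the most of any member, and none of Ccnd2 passed. Their log2 fold changes ran from 0.04 at 1416124_PM_at to 0.14 at 1416122_PM_at, with limma adjusted p of 0.700 to 0.978. At 1416122_PM_at Ccnd2 read 10.80, 10.92, 10.81 and 10.65 in cKO replicates 1 to 4, against 10.69, 10.55, 10.59 and 10.78 in WT replicates 1 to 4. At 1434745_PM_at it read 10.91, 11.07, 10.91 and 10.72 in cKO and 10.90, 10.71, 10.72 and 10.78 in WT. cKO replicate 2 was the highest of the 8 arrays at all 6 probe sets, and cKO replicate 4 lay within the WT range at each. Without WT replicate 2 the difference at 1416124_PM_at was -0.02. Probe set 1448229_PM_s_at carries the suffix that marks probes shared between transcripts, and it gave 0.09 (SE 0.07).

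Cyclin D3 showed no difference that its replicates could resolve. Ccnd3 read 8.08, 8.03, 7.97 and 7.90 in cKO and 8.06, 8.04, 8.08 and 7.80 in WT at 1415907_PM_at, where the log2 fold change was 0.00 (SE 0.07, limma adjusted p = 0.999) and a 95% interval of 0.896- to 1.12-fold. Without WT replicate 4, the lowest array, it was -0.06. Its other probe set, 1438805_PM_at, read 4.18 to 4.63 in cKO and 4.30 to 4.47 in WT, below the olfactory receptor level, with a difference of 0.03 (SE 0.09) that turned to -0.05 without cKO replicate 1.

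Cdk4, a catalytic partner of the D cyclins, had the narrowest intervals of the members. It read 10.34, 10.31, 10.36 and 10.34 in cKO replicates 1 to 4 at 1422439_PM_a_at, against 10.23, 10.40, 10.23 and 10.27 in WT replicates 1 to 4, which differ by 0.05 on the log2 scale (SE 0.05, limma adjusted p = 0.915). All 4 cKO arrays lay inside the WT range. The other Cdk4 probe sets gave 0.05 at 1422440_PM_at and 0.04 at 1422441_PM_x_at, whose suffix marks probes that other transcripts may share, and over the 3 the 95% intervals reached from 0.955-fold to 1.12-fold. The SD of cKO was 0.02 to 0.04 and that of WT 0.07 to 0.09 at these probe sets.

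Cdk6, the other catalytic partner, had a fitted difference below 0 at every probe set. At 1460291_PM_at Cdk6 read 9.13, 9.16, 9.35 and 9.27 in cKO replicates 1 to 4, against 9.37, 9.37, 9.35 and 9.32 in WT replicates 1 to 4. The cKO arrays 1, 2 and 4 lay below every WT array, and cKO replicate 3 lay inside the WT range, of 9.32 to 9.37. The log2 fold change was -0.12 (SE 0.05, limma adjusted p = 0.620, exact permutation p = 0.0571), with a 95% interval of 0.843- to 0.999-fold. The other 2, 1435338_PM_at and 1455287_PM_at, which the annotation ties to the same accession, gave -0.05 and -0.04 (limma adjusted p = 0.966 and 0.967).

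**Figure D3:**
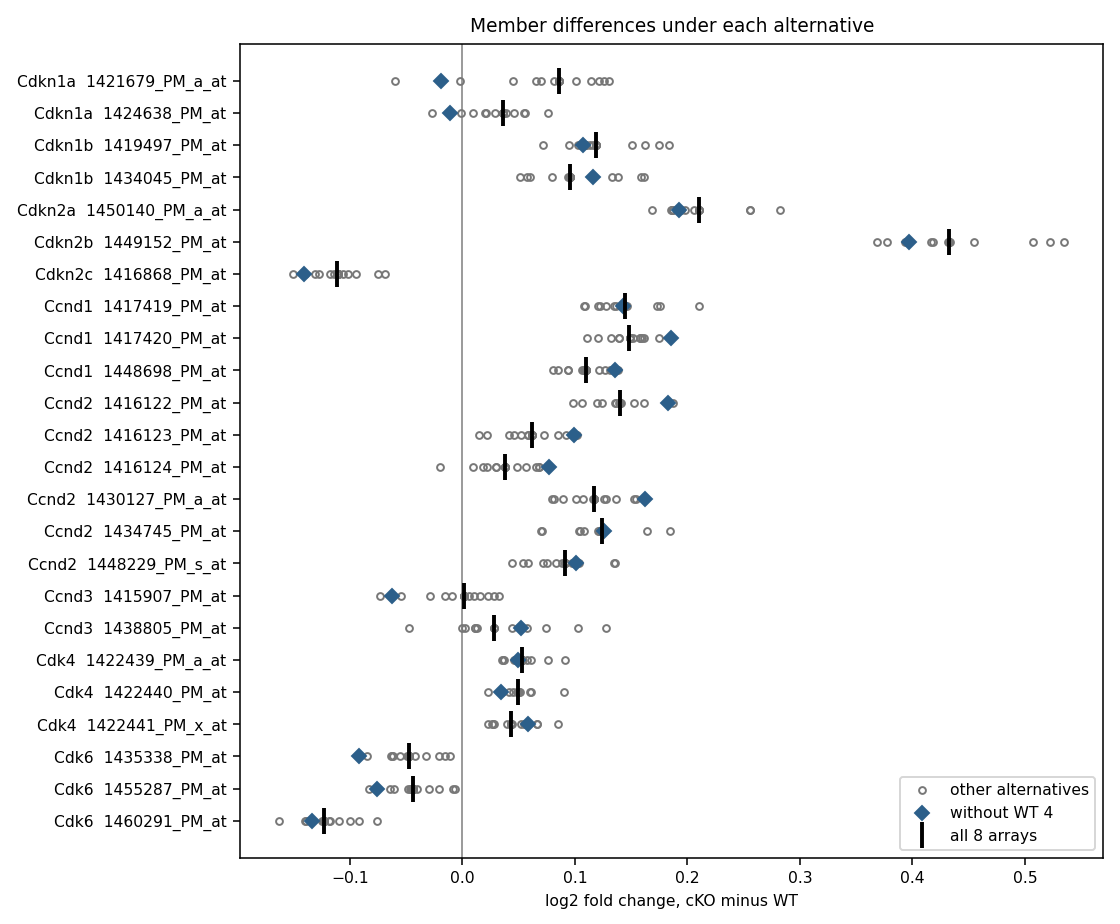
Fitted log2 difference of each member probe set with all 8 arrays (black bars), without WT replicate 4 (diamonds) and under the other alternatives (circles). Cdkn2b stays between 0.37 and 0.53 and the 3 sets of Ccnd1 above 0, while both sets of Cdkn1a and of Ccnd3 and the 1416124_PM_at set of Ccnd2 lie on either side of 0.

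Genes around these members in the pathway also gave no call: of 90 probe sets of 49 genes, 0 rose and 0 fell (limma), and 10 had an unadjusted p under 0.05, or 11.1% against 7.98% of all. Their fitted differences were above 0 at 29 and below 0 at 61, with a median of -0.05. The group of the pocket proteins, which the cyclin D kinases phosphorylate, and the E2F factors lay lowest, with a median of -0.12. Of its 24 probe sets 20 lay below 0, and 16.7% above 0, against 53.0% of all probe sets. It held 8 of the 10 unadjusted p-values under 0.05, or 33.3% of its probe sets against 7.98% of all. Among them was that of Rb1 at 1417850_PM_at, which lay above 0 (0.28). Means of this list per array overlapped, at 6.50 to 6.69 in cKO and 6.66 to 6.76 in WT. Only 20 of the 24 had a mean level above the olfactory receptor level. These 24 probe sets belong to 13 genes, and sets of one gene share its transcripts, so they are not independent. The 10 probe sets of proliferation markers had a median of -0.07, with list means per array of 7.80 to 8.02 in cKO and 7.85 to 8.11 in WT, and what the share of dividing cells adds to the member values was not tested.

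E2f2, an E2F factor that activates S phase genes, came closest to a call. At 1436434_PM_at E2f2 read 7.94, 7.72, 7.98 and 7.87 in cKO replicates 1 to 4, against 8.19, 8.30, 8.31 and 8.17 in WT replicates 1 to 4, so that the groups did not overlap. The log2 fold change was -0.36 (SE 0.06, limma adjusted p = 0.0579), and at the other probe set it was -0.29 (SE 0.07, adjusted p = 0.170). E2f2 passed under 4 of 17 alternatives: array weights (adjusted p = 0.0266), median centring (0.0350), quantile normalisation of the values once more (0.0332) and without both cKO 2 and WT 4 (0.0414). Over all of them the adjusted p ran from 0.0266 to 0.220.

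Rb1, which encodes the retinoblastoma protein itself, read 7.84, 7.92, 8.14 and 8.05 in cKO replicates 1 to 4 at 1417850_PM_at, against 7.66, 7.69, 7.69 and 7.78 in WT replicates 1 to 4. All cKO arrays lay above all WT arrays, and the difference was 0.28 (SE 0.07, limma adjusted p = 0.182). It passed under 1 of 18 alternatives, array weights (0.37, adjusted p = 0.0243). There cKO replicate 3, the highest array at this probe set, had the highest weight (2.71). Over all the alternatives the adjusted p ran up to 0.515. The other Rb1 probe set, 1444400_PM_at, gave 0.01 (SE 0.06, adjusted p = 0.995). Tfdp1, the DNA-binding partner of E2F factors, gave -0.10 (SE 0.04, limma adjusted p = 0.549).

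In the other pathway groups the differences with the smallest p did not pass either. The remaining inhibitors Cdkn1c (p57) and Cdkn2d (p19Ink4d) gave -0.16 and -0.04 (limma adjusted p = 0.718 and 0.992). Ccne2, a cyclin E that activates CDK2, gave -0.31 (SE 0.19, adjusted p = 0.807) with group means below the 95th percentile of the olfactory receptor probe sets. Ccnh gave -0.06 to 0.03 over 3 probe sets, of which the one at -0.06 also lay below that level. Ccna2 gave -0.09 and -0.05. Among genes of protein turnover Fbxo4, an F-box protein of the ubiquitin system, gave -0.15 (adjusted p = 0.572), and the scaffold Cul1 gave 0.07. Skp2, which targets p27 for destruction, gave -0.17 to 0.05 over 3 probe sets, of which 1437033_PM_a_at (-0.06) lay below the olfactory receptor level. Among regulators of inhibitor and cyclin genes Zbtb17, known as Miz1, gave -0.11 (adjusted p = 0.657), the forkhead factor Foxo3 gave 0.04 to 0.14 and the Polycomb protein Cbx7 gave -0.14 to 0.07, each over 3 probe sets. Of the proliferation markers Mki67 gave -0.18 (SE 0.06, adjusted p = 0.443), with 9.71 to 9.90 in cKO and 9.92 to 10.09 in WT, Mcm6 gave -0.16, and Mcm2 gave -0.19 and -0.07.

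**Figure D4:**
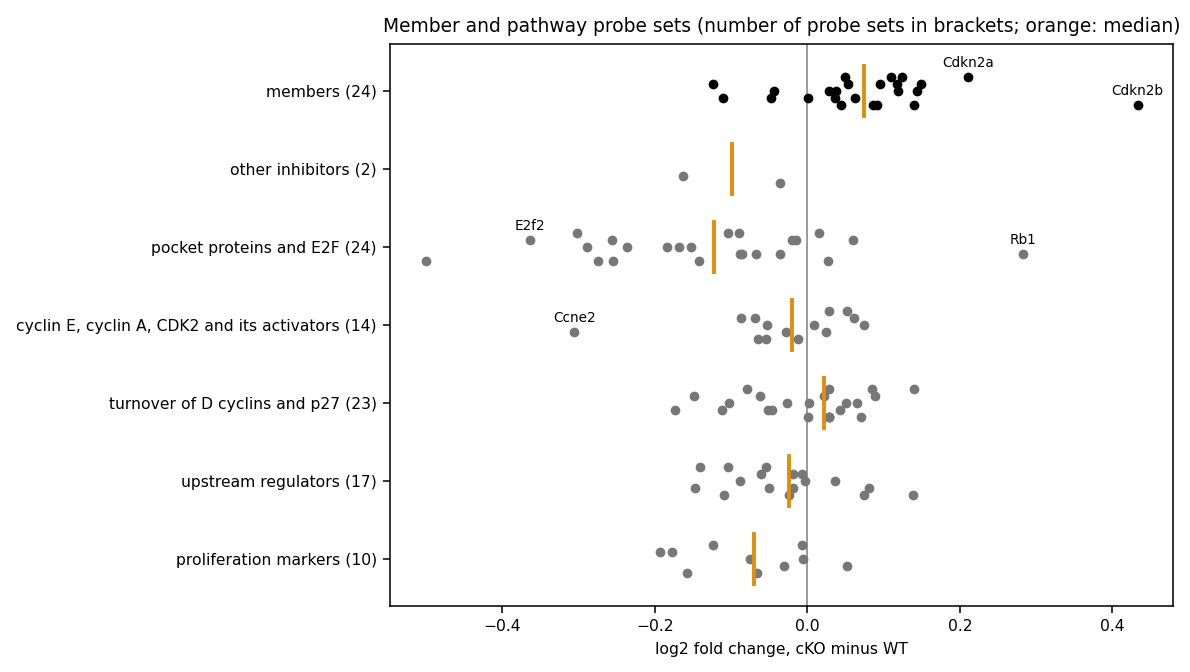
Log2 fold change between cKO and WT of each member probe set (black, top row) and of each probe set of the 6 other pathway groups (grey), with group medians in orange. The member median is 0.07 and that of the pocket proteins and E2F factors is -0.12, and no point passed the test.

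The probe sets whose pattern was most like that of Cdkn2b over the 8 arrays were those of Rnf13 (Pearson r = 0.988), Arrdc5 (0.985) and 4930503E14Rik (0.982). The means of Arrdc5 and 4930503E14Rik lay below the olfactory receptor level of 5.16 and were not shown to lie above background. All 3 were picked as the highest among all named probe sets that belong to no member, and they share with Cdkn2b the same 8 arrays and their normalisation. This likeness is a description of these samples, with no test.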

How the data were processed

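Expression was measured on 1-colour arrays, 1 for each of 8 samples, from RNA amplified before labelling, per the labels' protocols. The deposited table gives log2 expression for each probe set, which the authors computed by RMA according to the submitters' processing notes. The RMA version was not given in the sources used here, and the log2 base was inferred from the range of values. Its 45141 rows hold 104 control probe sets, which were dropped; of the 45037 that remained, the platform annotation pairs 28898 with 1 gene. Groups and replicate numbers came from the titles. The comparison of cKO with WT used limma 3.58.1 (lmFit, eBayes) in R 4.3.3 and was two-sided, with p-values adjusted by Benjamini-Hochberg over all probe sets. Arrays give no read depth, and 4 per group limit the precision. Data were simulated for this comparison in 10 runs over 45037 probe sets, 200 of them changed, with independent noise. In them 73.1% of changes of 0.5 and 95.9% of changes of 1.00 (log2) were recovered, and 5.38% of calls were false. Changes below 0.5 were not simulated, so the recovery of differences as small as those of the members was not tested.

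The members, lists, tests and alternatives were chosen with earlier results of these data known. Named are all members, Ehmt2, for each pathway group the 3 genes with the smallest unadjusted p, and the 3 probe sets most like the leading member. The genes Krt14 and Krt5, given as a check of the tissue, were chosen after their values were seen. Of 52 listed pathway genes 49 had a probe set of their own. Promoter sequences are from RefSeq (GRCm38.p6). Alternatives were the replicate block, filters on dim probe sets, quantile normalisation, median centring, other priors, array weights, 1 probe set per gene, another threshold and leaving out arrays. Plots were drawn with matplotlib 3.10.9.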

Additional observations from a re-analysis of the deposited data

Results flagged for a closer look

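In 7 of 110 groups of 4 arrays, 1 array stood farther from the rest than Dixon's test at 95% allows, and chance flags about 1 in 20 groups. In WT, replicate 4 was low for Cdkn1a at both probe sets, at 10.82 (others 11.22 to 11.26) and 11.84 (others 12.01 to 12.04), and for Ccnd3 at 1415907_PM_at, at 7.80 (others 8.04 to 8.08), and high for Cbx7 at 1433557_PM_at, at 5.76 (others 5.46 to 5.51). In cKO, replicate 1 was low for Cdkn2a, at 4.54 (others 4.82 to 4.83), and high for Skp2 at 1437033_PM_a_at, at 4.12 (others 3.78 to 3.83), and replicate 3 was high for Zbtb17, at 8.45 (others 8.26 to 8.29).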

How the results depend on the processing

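The count of 0 member probe sets called held under every alternative run except array weights, which called 1 (Cdkn2b). Over all probe sets 210 were called, 104 to 356 when 1 array was left out (131 without cKO 2, 108 without cKO 3, 104 without WT 1, 112 without WT 3, 356 without WT 4), 758 with array weights, 132 among the upper 50% by mean, 657 without both cKO 2 and WT 4, and 343 at a threshold of 0.1. Pathway probe sets called were 2 with array weights, 1 with median centring, 1 with quantile normalisation, 2 without both cKO 2 and WT 4, 1 at a threshold of 0.1, and 0 without any 1 array. Between 0 and 5 member probe sets had groups that did not overlap when 1 array was left out, and 2 did without both cKO 2 and WT 4, where 19.6% of all probe sets did. The 5 came without cKO replicate 1 and again without WT replicate 2, where 10.1% and 9.44% of all probe sets did not overlap, with 3 without cKO 4 (8.57% of all), 2 without WT 4 (11.6% of all) and 1 without cKO 3 (6.21% of all). With the replicate number as a block 175 probe sets, 0 members and 0 pathway probe sets were called. The deviations of same-numbered arrays correlated between -0.624 and 0.368, and those of differently numbered arrays between -0.619 and 0.545. With 4 arrays per group these values cannot settle whether the numbers pair the samples, and the labels do not say.

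Single values were recomputed for the members, Ehmt2 and, for each other named pathway gene, its probe set with the smallest p. Of 414 such values for members, 15 turned sign. Cdkn1a gave -0.0022 and -0.0014 with array weights, -0.060 and -0.027 without both cKO 2 and WT 4, and -0.019 to 0.13 and -0.011 to 0.076 without 1 array. Ccnd3 at 1415907_PM_at gave -0.055 with array weights, -0.015 with median centring, -0.074 without both, and -0.063 to 0.032 without 1 array. Without 1 array the ranges were -0.047 to 0.10 for Ccnd3 at 1438805_PM_at, -0.020 to 0.077 for Ccnd2 at 1416124_PM_at, -0.16 to 0.029 for Cdkn2d and -0.030 to 0.045 for Ehmt2 at 1426888_PM_at, which gave -0.0044 with median centring. The cause of these turns was not tested. The dim probe sets of Cdkn2a and of Ccnd3 at 1438805_PM_at drop out under both filters. The number of arrays limits what these differences can show.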
